A study of Mus musculus with 4 samples.

Results

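The 9 genes described here encode parts of the voltage-gated sodium channel and proteins that bind it. Scn1a, Scn3a and Scn8a encode pore-forming alpha subunits. Scn2b, Scn3b and Scn4b encode beta subunits. Fgf12, Fgf13 and Fgf14 encode fibroblast growth factor homologous factors. The genes were chosen by their symbols, and each symbol was found, so they are 9 of the 43348 features in each count matrix. Their unique molecular identifier (UMI) counts were read by cell class, brain region, genotype and library.

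The study sorted tdTomato-positive cells from slices of frontal cortex and hippocampus of mice at postnatal days 18 to 20, and sequenced their RNA with droplet-based 3′ single-cell libraries. In both genotypes Nkx2-1-Cre switched on the Ai14 tdTomato reporter. Wild-type (WT) mice had intact Grin1 alleles, and the Grin1-null mice, labelled GRIN1-KO, had both alleles floxed. The comparison asks what loss of the obligatory NMDA receptor subunit does to interneurons born in the medial ganglionic eminence (MGE), and how cortical and hippocampal cells differ. Nkx2-1-Cre acts from MGE progenitors onward, so deletion preceded the differentiation of each class and was not limited to 1 of them. The sorted lineage also includes glia. Each library pooled cells of several animals, so spread between libraries is not spread between single mice. All groups were dissociated in the same blockers of activity and transcription.

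There were 3 libraries each for WT cortex and WT hippocampus, and 2 each for Grin1-null cortex and Grin1-null hippocampus. Total UMI counts were 9306756, 14212183 and 28057207 in WT cortex, and 10555408, 8782181 and 20639002 in WT hippocampus, in the order of replicates 1 to 3. They were 1488601 and 25688337 in Grin1-null cortex and 3856745 and 47338167 in Grin1-null hippocampus. After filtering, 26201 of 26987 cells were kept, and the Grin1-null cortex libraries held 177 and 2578 of them. Replicate 1 of every group was made with an earlier version of the chemistry than the other replicates. Each group has replicates of both versions, but the earlier one made 1 of 3 libraries of each WT group and 1 of 2 of each Grin1-null group, so the version is not balanced over genotype. Across libraries, 95 barcodes occurred more than once.

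WT hippocampus replicate 2 stood apart. Its median of 1479 UMIs per kept cell was the lowest of the 10 libraries, the others lying between 2912.5 and 9763. It also held 515 of the 607 cells of a neurogliaform cluster and 644 of the 1406 cells of a low-depth SST cluster. These 2 clusters are the doubted clusters named below. Several results that rest on the library are also given without it.

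Cells were grouped with the 9 genes and the listed related genes left out of the features, so that the classes were not made from them. Markers named 3 interneuron classes, namely 6739 somatostatin (SST) cells, with the TH cluster among them, 2131 parvalbumin (PVALB) cells and 2199 neurogliaform cells (NGFC). Sst reached 14380 CPM (UMIs of a gene in a class, scaled to an equal total for each sum) in the SST class and 46.8 in oligodendrocytes. Pvalb reached 1635 CPM in the PVALB class against 4.34, and Lamp5 531 CPM in the NGFC class against 0.675. A pair of clusters with SST markers was left unnamed by thresholds set after the data were seen. The low-depth one of the pair made up 4.09% of WT cortex cells, 0.663% of WT hippocampus cells, 0.762% of Grin1-null cortex cells and 1.28% of Grin1-null hippocampus cells. The one that also met cholinergic markers made up 1.98%, 0.975%, 2.58% and 1.41% of the same groups. A cluster nearest to glutamatergic cells held 0.797%, 0.402%, 0.980% and 0.561% of these groups. A last unnamed one, nearest to oligodendrocytes, held 0.0553%, 0.563%, 0% and 0.135% of them. Many of these shares rest on single libraries. WT cortex replicate 3 held 310 of the 370 WT cortex cells of the low-depth cluster, and without it the share was 1.175%. In WT hippocampus, without replicate 3, the 4 clusters in the order above held 0.117%, 0.235%, 0.176% and 0.0587%, and without replicate 2 they held 1.08%, 1.77%, 0.523% and 0.971%. Without WT cortex replicate 2 the cholinergic-marked one held 1.23% of WT cortex cells, and without WT cortex replicate 3 the last one held 0.0196%. Without replicate 2 the 4 clusters held 0%, 2.825%, 0% and 0% of Grin1-null cortex cells and 0.499%, 0.499%, 0.249% and 0% of Grin1-null hippocampus cells.

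The alpha subunit forms the sodium-selective pore that opens on depolarisation and then inactivates, and channels cluster at the axon initial segment, where action potentials start. Beta subunits are single-pass membrane proteins with an immunoglobulin-like domain that tune gating and anchor the channel. Fibroblast growth factor homologous factors are not secreted like other fibroblast growth factors, and they bind the cytoplasmic tail of alpha subunits and shift inactivation.

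Grin1, the targeted gene, was low in every Grin1-null library of every interneuron class. In SST cells it stood at 153, 254 and 232.5 CPM in WT cortex, 118, 175 and 157.5 in WT hippocampus, 36.7 and 28.2 in Grin1-null cortex and 20.0 and 21.6 in Grin1-null hippocampus. In PVALB cells it stood at 112, 214 and 177, then 102, 164 and 127, then 43.1 and 21.5, and 23.3 and 16.7 CPM in the same order. In NGFC it stood at 117, 180.4 and 165, then 121, 111 and 133, then 36.2, and 33.6 and 15.8 CPM. The genotypes did not overlap in any of these classes and regions, so the genotype labels match the counts. Grin1-null cortex replicate 1 has no NGFC value, since it held 5 such cells and sums of under 10 cells were left out, so Grin1-null NGFC of the cortex have the later chemistry only. Where the floxed exons lie relative to the 3′ reads was not given in the sources used, so residual counts say nothing about intact transcript.

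Over the mean of both regions the log2 change of Grin1, Grin1-null minus WT, was -2.78 ± 0.234 (SE; adjusted p = 0.000654) in SST cells and -2.71 ± 0.305 (SE; adjusted p = 0.00291) in PVALB cells. These came from the quasi-likelihood test of edgeR, with p-values adjusted by Benjamini-Hochberg over all genes tested. A gene is called here when its adjusted p is under 0.01 and its log2 change at least 0.144 in size. In NGFC the change was -2.24 ± 0.353 (SE; adjusted p = 0.295) and was not called. In SST cells the call was lost without any 1 of the 4 Grin1-null libraries, with log2 changes over all alternatives of -2.87 to -2.67 and adjusted p of 6.87e-28 to 0.0289. In PVALB cells it was lost without Grin1-null cortex replicate 2, either Grin1-null hippocampus library, WT cortex replicate 3 or WT hippocampus replicate 3, with log2 changes of -2.91 to -2.38 and adjusted p of 1.31e-16 to 0.155.

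The comparison of classes within WT asks how these subunits are distributed over interneuron types, and each class is measured in the same 6 libraries. PVALB cells held more Scn1a, Scn8a and Fgf12 and less Scn3a, Scn3b and Fgf14 than SST cells. NGFC stood out by high Fgf13 and low Fgf12. Scn4b failed the filter on low counts in every comparison, so 8 of the 9 genes were tested. Of these, 6 were called between PVALB and SST cells, where 22.5% of the 10165 genes tested were called. The called genes were 3 higher (11.5% of all genes) and 3 lower (10.9%). Between NGFC and SST cells 4 were called against 23.7% of all genes, 1 of them higher (11.5%) and 3 lower (12.2%). Between PVALB cells and NGFC 7 were called against 23.3%, 4 of them higher in PVALB cells (12%) and 3 lower (11.3%). Without WT cortex replicate 2 or WT cortex replicate 3 the count over all genes for PVALB minus SST was 1512 or 1438 in place of 2286. The share called among the genes was above the background in each comparison, but genes passing a filter on counts in these cells are not a random draw, and nothing particular to the list follows. The median log2 change of the 8 genes was 0.22 for PVALB minus SST, -0.063 for NGFC minus SST and 0.07 for PVALB minus NGFC. Over all genes the medians were -0.0043, 0.0071 and -0.016. These tests compare classes within libraries, and without the library as a term 12 of the 17 calls were lost. The 5 that passed either way were those of Fgf12 in all 3 comparisons and of Fgf13 in both with NGFC.

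Scn1a encodes an alpha subunit known for its part in fast-spiking interneurons and in Dravet syndrome. Over the 6 WT libraries its lowest, median and highest values were 146, 229.5 and 357 CPM in SST cells, 228, 399 and 549 in PVALB cells and 153, 259.6 and 379 in NGFC. The ranges overlapped, yet PVALB cells were above SST cells and above NGFC in 6 of 6 libraries. The log2 change was 0.69 ± 0.115 (SE; adjusted p = 9.69e-05) for PVALB minus SST. It was 0.53 ± 0.124 (SE; adjusted p = 0.00217) for PVALB minus NGFC, a call lost without WT cortex replicate 3 (adjusted p over all alternatives 3.28e-08 to 0.262). NGFC and SST cells were not called apart, at 0.15 ± 0.120 (SE; adjusted p = 0.364), with NGFC higher in 5 of 6 libraries. In the order of levels, PVALB, NGFC and SST neighbours lay within 1 standard deviation (SD) of each other, and all 3 lay above glutamatergic cells (82.2 ± 53.8 CPM, SD, n = 5, one of them WT hippocampus replicate 2 with 14 glutamatergic cells and 0 Scn1a UMIs), while oligodendrocytes were at 2.41 ± 2.09 CPM (n = 6).

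Scn3a encodes an alpha subunit that in rodents is known chiefly from early development. Its lowest, median and highest values were 31.6, 50.3 and 64.8 CPM in SST cells, 12.05, 26.0 and 52.5 in PVALB cells and 34.7, 58.9 and 81.2 in NGFC. PVALB cells were the lowest of the 3 classes in 6 of 6 libraries, although the ranges overlapped. The log2 change was -0.96 ± 0.156 (SE; adjusted p = 6.64e-05) for PVALB minus SST and -1.08 ± 0.189 (SE; adjusted p = 0.000139) for PVALB minus NGFC, while NGFC minus SST was 0.12 ± 0.152 (SE; adjusted p = 0.583) and not called. Among the other classes, glutamatergic cells averaged 84.4 ± 44.7 CPM (SD, n = 5) and oligodendrocyte precursors 55.9 ± 23.9 CPM (SD, n = 6). Glutamatergic cells, NGFC, precursors and SST cells followed each other within 1 SD. PVALB cells came below them and oligodendrocytes (2.87 ± 0.5745 CPM) further below.

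Scn8a encodes the alpha subunit typical of mature axon initial segments and nodes. Its lowest, median and highest values were 108, 150.2 and 172 CPM in SST cells, 146, 202 and 284 in PVALB cells and 69.4, 122 and 146 in NGFC. Every PVALB value was above every NGFC value. The log2 change was 0.75 ± 0.114 (SE; adjusted p = 3.3e-05) for PVALB minus NGFC, higher in 6 of 6 libraries. For PVALB minus SST it was 0.49 ± 0.0983 (SE; adjusted p = 0.000536), higher in 5 of 6. NGFC were below SST cells in 6 of 6 libraries, but the change of -0.25 ± 0.108 (SE; adjusted p = 0.0815) was not called. Glutamatergic cells at 223 ± 33.7 CPM (SD, n = 5) and PVALB cells lay within 1 SD of each other, as did SST cells and NGFC, and oligodendrocytes reached 29.1 ± 8.81 CPM (SD, n = 6).

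Scn2b encodes a beta subunit joined to the alpha subunit by a disulfide bond. In SST cells it stood at 318.5, 185.5 and 133 CPM in WT cortex and 397, 168 and 159 in WT hippocampus, in PVALB cells at 292, 192 and 138 and 374, 149 and 141.5, and in NGFC at 234, 150.3 and 75.5 and 362, 97.55 and 109. Replicate 1, the only WT replicate of the earlier chemistry, was the highest in both regions and all 3 classes. In the Grin1-null libraries, replicates 1 and 2 in turn, Scn2b was 259 and 170 CPM in SST cells of the cortex, 164 and 194 in SST cells of the hippocampus, 226 and 182 in PVALB cells of the cortex and 145 and 193 in PVALB cells of the hippocampus. Replicate 1, again of the earlier chemistry, was thus the higher in Grin1-null cortex and the lower in Grin1-null hippocampus. NGFC of the Grin1-null hippocampus had 129 and 128 CPM. NGFC were below SST cells in 6 of 6 libraries, at a log2 change of -0.45 ± 0.0882 (SE; adjusted p = 0.000414). They were below PVALB cells in 6 of 6 too, at 0.39 ± 0.0942 (SE; adjusted p = 0.00306) for PVALB minus NGFC. The latter call was lost without WT cortex replicate 2, WT cortex replicate 3, WT hippocampus replicate 2 or WT hippocampus replicate 3, and without the 2 doubted clusters (adjusted p over all alternatives 0.000216 to 0.730). PVALB and SST cells were not called apart, at -0.063 ± 0.0822 (SE; adjusted p = 0.619). SST, PVALB, NGFC and glutamatergic cells (134 ± 47.5 CPM, SD, n = 5) followed each other within 1 SD.

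Scn3b encodes a beta subunit that binds without a disulfide bond. Its lowest, median and highest WT values were 68.8, 88.15 and 121 CPM in SST cells, 31.5, 51.8 and 95.6 in PVALB cells and 28.4, 63.3 and 94.1 in NGFC. SST cells were the highest of the 3 classes in 6 of 6 libraries, although the ranges overlapped. The log2 change was -0.69 ± 0.115 (SE; adjusted p = 7.85e-05) for PVALB minus SST. It was -0.45 ± 0.122 (SE; adjusted p = 0.00732) for NGFC minus SST, a call lost without the 2 doubted clusters and without any 1 WT library except hippocampus replicate 3 (adjusted p over all alternatives 0.000338 to 0.3785). PVALB minus NGFC was -0.25 ± 0.142 (SE; adjusted p = 0.194) and not called. Glutamatergic cells were at 93.2 ± 71.8 CPM (SD, n = 5), but the highest of these values, 213.5 CPM in WT hippocampus replicate 2, was 4 UMIs in 1 of 14 cells. Without that library they were at 63.2 ± 29.2 CPM (n = 4), between NGFC and PVALB cells and within 1 SD of both, and SST cells, at 92.65 ± 19.8 CPM (n = 5), were the highest class by more than 1 SD.

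Scn4b encodes the other disulfide-linked beta subunit, known for its part in resurgent sodium current, and it was close to absent from these counts. In WT it had 5 UMIs in SST cells, 11 in PVALB cells, 0 in NGFC and 29 in glutamatergic cells. In PVALB cells it stood at 0, 1.5 and 1.11 CPM in WT cortex, 0, 0 and 0 in WT hippocampus, 0 and 2.21 in Grin1-null cortex and 0 and 5.81 in Grin1-null hippocampus. The last of these, Grin1-null hippocampus replicate 2, had 24 UMIs (95% exact Poisson interval 3.72 to 8.64 CPM, for counting error only). In the 3 WT hippocampus libraries a count of 0 allows up to 8.76, 5.40 and 3.72 CPM (3 counts each), within or above that interval. Added up, these 3 libraries had 0 UMIs of Scn4b in 1704018 UMIs, which allows up to 1.76 CPM (3 counts over the group), below the interval. The 0 of Grin1-null hippocampus replicate 1 allows up to 6.999 CPM, so the higher level rests on 1 library, and Scn4b was not tested. In glutamatergic cells the WT cortex values were 2.47, 6.33 and 22.9 CPM. Their WT mean of 6.34 ± 9.61 CPM (SD, n = 5) did not lie above the next class by more than 1 SD.

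Fgf12 encodes a homologous factor with splice forms that differ at the start of the protein. Its lowest, median and highest WT values were 230.5, 262 and 285 CPM in SST cells, 302, 463 and 557 in PVALB cells and 61.0, 81.9 and 108 in NGFC. The 3 ranges did not overlap. PVALB cells were above SST cells and SST cells above NGFC in 6 of 6 libraries. In log2 terms the change was 0.75 ± 0.1055 (SE; adjusted p = 1.27e-05) for PVALB minus SST, -1.68 ± 0.128 (SE; adjusted p = 2.22e-09) for NGFC minus SST and 2.43 ± 0.131 (SE; adjusted p = 5.5e-11) for PVALB minus NGFC. Each step of the order PVALB, SST, glutamatergic (186 ± 67.7 CPM, SD, n = 5), NGFC and oligodendrocyte precursors (41.9 ± 15.1 CPM, SD, n = 6) was larger than 1 SD. Without WT hippocampus replicate 2, where glutamatergic cells had 2 UMIs, the step from SST cells to glutamatergic cells (205 ± 59.3 CPM, n = 4) was within 1 SD.

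Fgf13 encodes an X-linked homologous factor that also binds microtubules. Its lowest, median and highest WT values were 76.0, 121 and 175 CPM in SST cells, 78.9, 222.5 and 528 in PVALB cells and 576, 880.4 and 1320 in NGFC. Every NGFC value was above every SST and PVALB value. The log2 change was 2.89 ± 0.304 (SE; adjusted p = 2.18e-07) for NGFC minus SST and -1.99 ± 0.318 (SE; adjusted p = 5.45e-05) for PVALB minus NGFC, each in the same direction in 6 of 6 libraries. PVALB minus SST was 0.90 ± 0.314 (SE; adjusted p = 0.0327), higher in 4 of 6 libraries and not called. Without WT cortex replicate 3 that difference was called at a log2 change of 1.21, and without WT hippocampus replicate 2 it was 0.55 and not called (adjusted p over all alternatives 3.49e-21 to 0.148). PVALB, glutamatergic (154 ± 99.4 CPM, SD, n = 5) and SST cells followed each other within 1 SD, and oligodendrocytes were at 1.70 ± 1.035 CPM (SD, n = 6).

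Fgf14 encodes the homologous factor mutated in a spinocerebellar ataxia. Its lowest, median and highest WT values were 14.6, 24.2 and 41.5 CPM in SST cells, 6.21, 11.1 and 19.8 in PVALB cells and 20.8, 24.4 and 46.0 in NGFC. PVALB cells were the lowest of the 3 classes in 6 of 6 libraries, and their range did not reach that of NGFC. Log2 changes were -1.04 ± 0.171 (SE; adjusted p = 8.17e-05) for PVALB minus SST and -1.31 ± 0.216 (SE; adjusted p = 8.13e-05) for PVALB minus NGFC. NGFC minus SST was 0.27 ± 0.172 (SE; adjusted p = 0.249) and not called. Neighbours in the order NGFC, SST, glutamatergic (22.0 ± 16.2 CPM, SD, n = 5) and PVALB lay within 1 SD of each other. Without WT hippocampus replicate 2 the order was glutamatergic (27.45 ± 12.2 CPM, n = 4), SST and NGFC, each within 1 SD of the next, and PVALB cells were lower by more than 1 SD.

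The glutamatergic means of the other genes rest on that library too, with its 18732 glutamatergic UMIs. Without it (SD, n = 4) they were 103 ± 32.4 CPM for Scn1a, 65.45 ± 16.6 for Scn3a, 212 ± 26.7 for Scn8a, 127 ± 52.1 for Scn2b, 7.92 ± 10.3 for Scn4b and 113 ± 40.95 for Fgf13. For Fgf13 glutamatergic cells then came below SST cells (132.5 ± 32.3 CPM, n = 5), still within 1 SD.

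**Figure D1:**
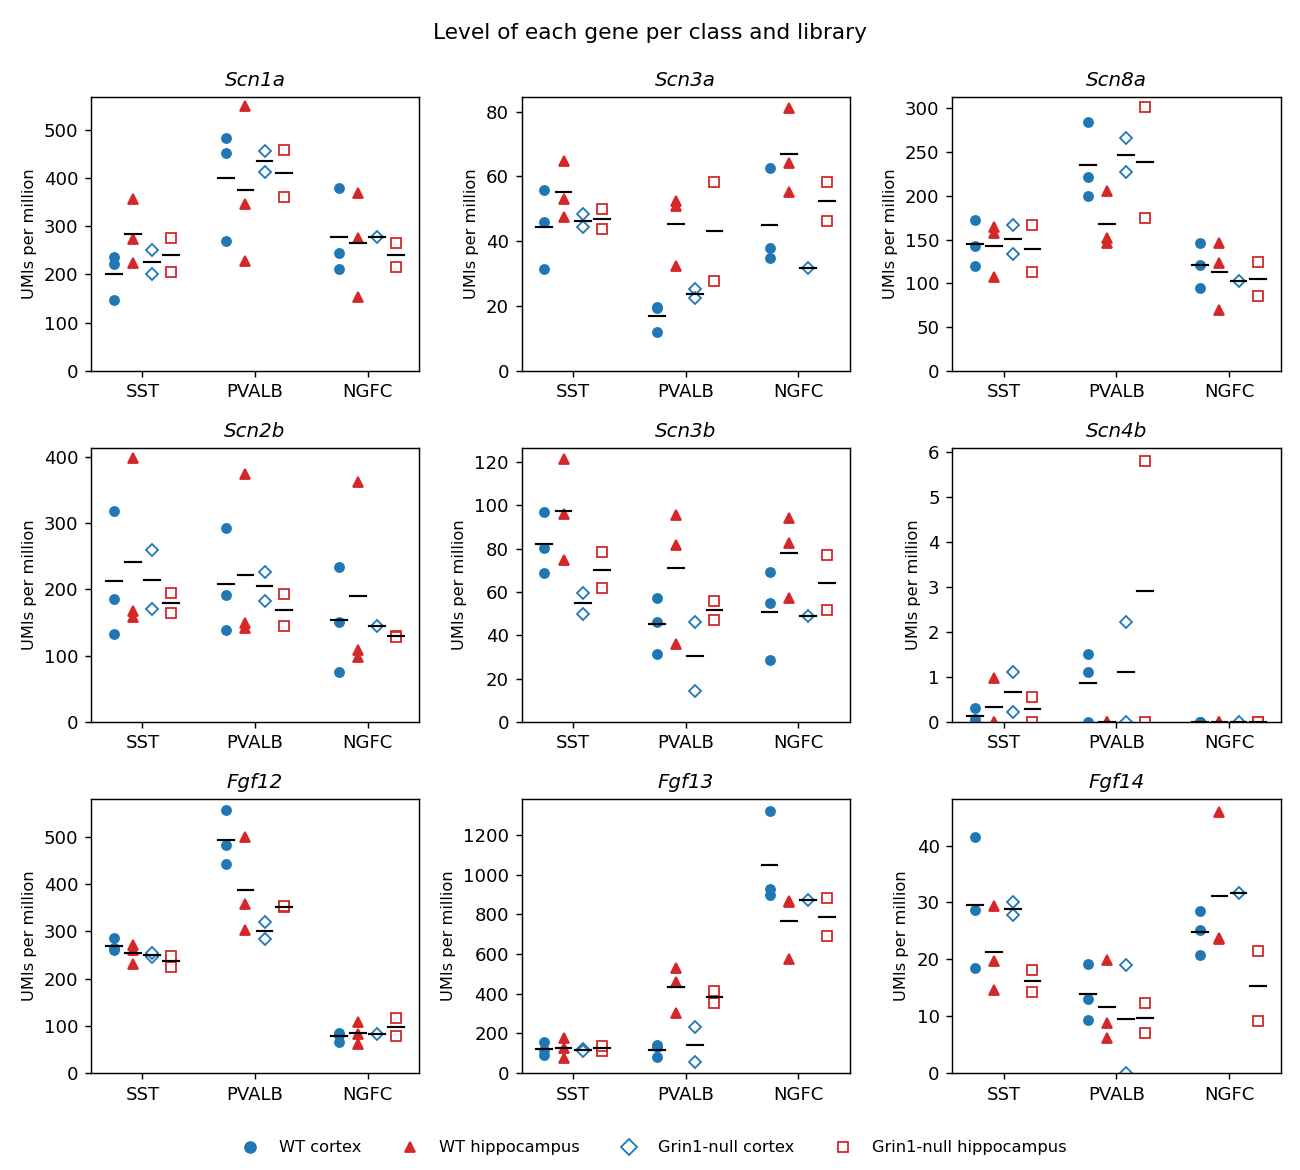
CPM of the 9 genes (vertical axes, 1 panel per gene, each with its own scale) in the 3 interneuron classes, with 1 point per library in the 4 groups of genotype and region and a black bar at the mean of a group. Within each of these groups PVALB points lie highest for Fgf12 and NGFC points for Fgf13, while Scn4b stays at or below 5.81 CPM in every library plotted.

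Clusters within a class differed from each other as well, and these levels are a description without a test. The main PVALB cluster had the highest Fgf12 of the interneuron clusters, 503 ± 74.6 CPM (SD, n = 6), above the next by more than 1 SD, while the PVALB cluster led by Pthlh stood at 239.8 ± 56.5 CPM. Between these clusters the order was the other way round for Fgf13. In the main PVALB cluster Fgf13 was 76.7, 57.1 and 56.0 CPM in WT cortex and 144, 134 and 149.5 in WT hippocampus. In the Pthlh-led cluster it was 756, 526 and 472 and 1243, 935 and 1045 CPM, above every value of the main cluster. The smallest PVALB cluster, led by Crabp1 and also with Pthlh among its top 10 genes, was low in both, with Fgf12 at 111 ± 46.7 CPM and Fgf13 at 62.4 ± 22.6 CPM (SD, n = 2). In the Chodl-marked SST cluster it was low, at 15.3, 7.47 and 4.75 CPM in WT cortex.

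That Chodl-marked cluster had the highest mean Scn3a of the interneuron clusters, 92.9 ± 15.8 CPM (SD, n = 4), and the TH cluster the lowest, 16.7 ± 12.6 CPM (n = 5). The TH cluster also had the lowest mean Scn3b, 31.75 ± 21.4 CPM, and the highest mean Scn8a, 212 ± 32.4 CPM (n = 5). Each of these 4 lay within 1 SD of the next cluster, for Scn3b the Pthlh-led one (44.1 ± 16.4 CPM, n = 6) and for Scn8a the main PVALB one (203 ± 51.3 CPM, n = 6). Over the 10 interneuron clusters with at least 50 WT cells, Scn3a and Scn8a ran in opposite order (Pearson r of log2(CPM + 1) = -0.929) and Scn3a and Scn3b in the same order (r = 0.825). Scn1a and Scn8a had r = 0.790. Clusters share libraries and differ in depth, so these correlations are descriptions with no p. The mean of Scn1a itself was lowest in the Myh8-marked SST cluster, 109 ± 17.3 CPM, and the Chodl-marked cluster, 137 ± 35.6 CPM, and highest in the main PVALB cluster, 409.8 ± 136.5 CPM, which was within 1 SD of the next. In the Cbln4-marked SST cluster Fgf14 was 30.3, 72.0 and 45.2 CPM in WT cortex and 17.1, 8.385 and 12.3 in WT hippocampus, ranges that did not overlap.

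**Figure D2:**
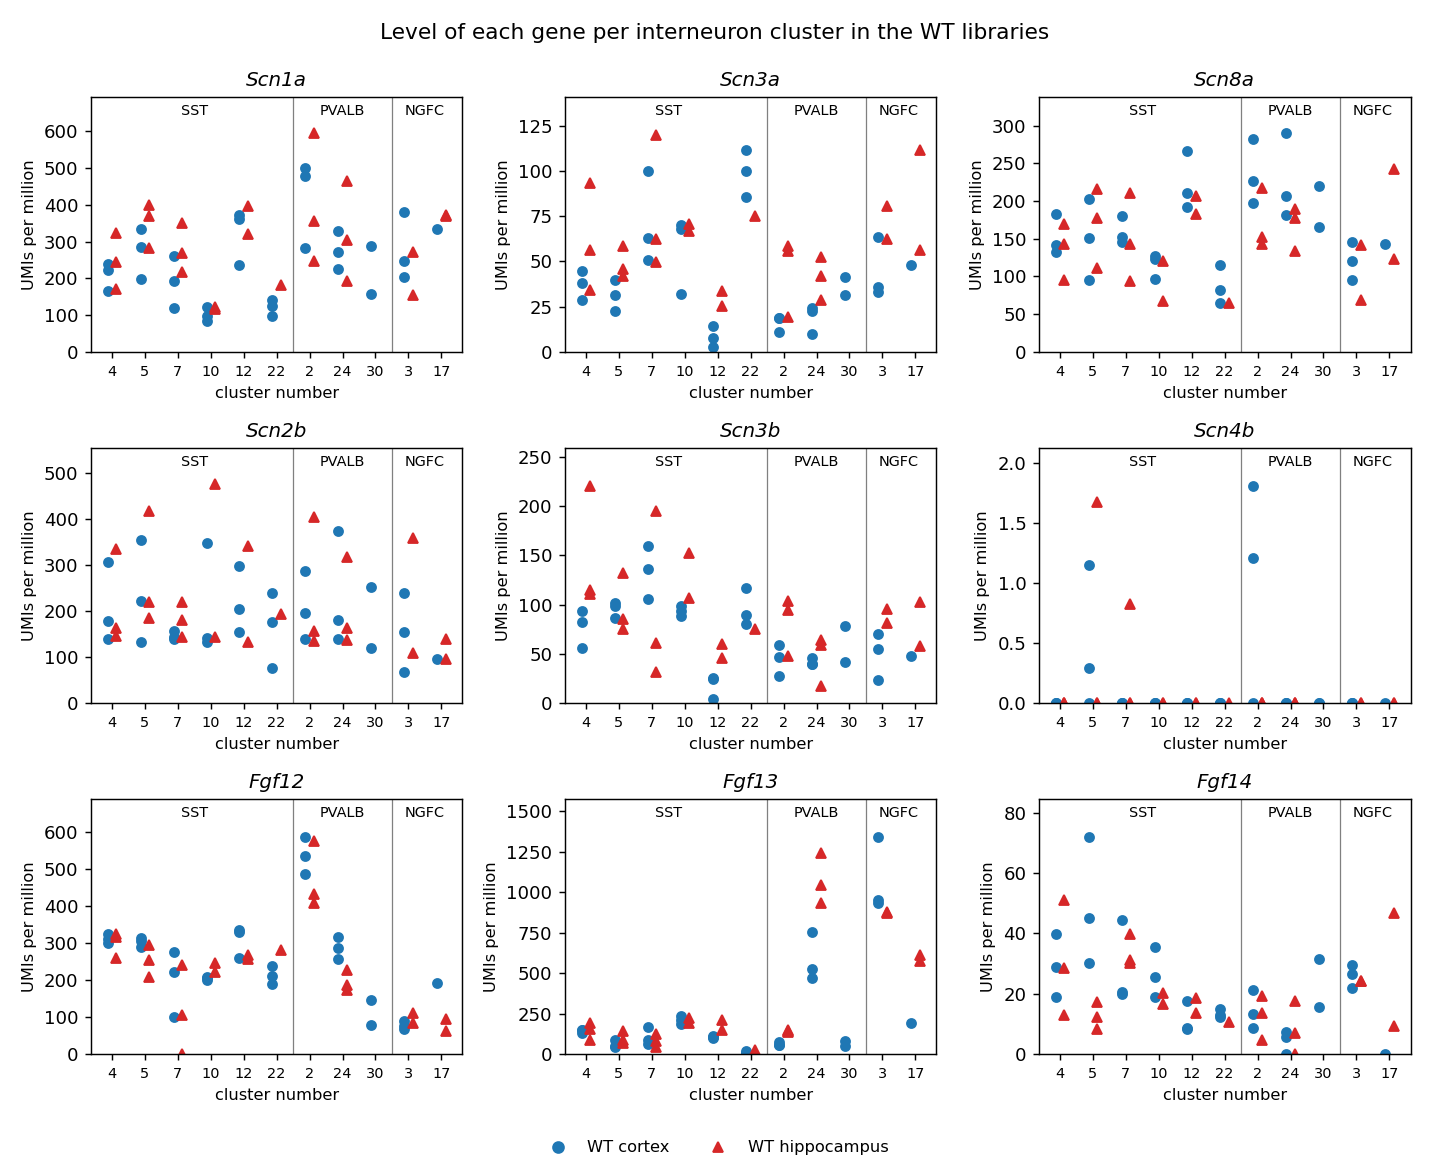
CPM of the 9 genes (vertical axes, 1 panel per gene) in each WT interneuron cluster, with 1 point per library that has at least 10 cells of the cluster. Fgf12 is highest in the main PVALB cluster (number 2) and Fgf13 in the larger NGFC cluster (3) and the Pthlh-led PVALB cluster (24), while the TH cluster is number 12 and the Chodl-marked one 22.

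The share of WT cells with at least 1 UMI was read as well. Because deeper cells show more genes, each cell was also thinned to 1000 UMIs. In WT this left out 325 SST cells, 23 PVALB cells, 152 NGFC and 648 oligodendrocytes of lower depth. Median depths in WT were 6247 UMIs in SST cells, 6794 in PVALB cells, 3489 in NGFC and 3501 in oligodendrocytes, which should lack neuronal channels and serve as background. Thinned, Scn1a was seen in 20.9% of SST cells, 35.5% of PVALB cells and 25.5% of NGFC against 0.173% of oligodendrocytes. Fgf12 was seen in 23.1%, 37.2% and 7.51% against 0.787%. Fgf13 was seen in 11.2%, 11.95% and 50.5% against 0.134%. All of these were above the background. Scn8a, at 13.9%, 18.35% and 10.6%, had the highest background of the 9 genes, 2.61%. Fgf14 was sparse, at 2.965%, 1.42% and 2.585% against 0.0192%. Scn3a was seen in 4.72%, 3.10% and 6.34% against 0.211%. The share for Scn2b was 16.9%, 18.6% and 14.3% against 0.173%, and for Scn3b 8.095%, 4.845% and 8.01% against 0.365%. These shares did not all follow the CPM. For Scn2b and Fgf14 the order of the classes went against that of the mean CPM (227 in SST cells, 214.5 in PVALB cells and 171 in NGFC for Scn2b, and 25.4, 12.7 and 27.9 for Fgf14), so no order is read from them. For Scn3b the shares of SST cells and NGFC, and for Fgf13 those of SST and PVALB cells, lay within each other's 95% Wilson intervals, while the mean CPM was 89.6 against 64.4 and 123 against 274. Without thinning, the shares in SST cells, PVALB cells, NGFC and oligodendrocytes were 63.05%, 84.4%, 59.0% and 0.803% for Scn1a, 24.0%, 14.8%, 22.7% and 1.21% for Scn3a, and 53.0%, 68.4%, 37.45% and 10.4% for Scn8a. They were 58.7%, 62.0%, 40.3% and 0.546% for Scn2b and 37.35%, 27.8%, 26.7% and 1.25% for Scn3b. For the homologous factors they were 67.5%, 84.5%, 27.3% and 3.07% (Fgf12), 42.1%, 42.7%, 76.6% and 0.615% (Fgf13) and 16.1%, 9.55%, 11.6% and 0.0683% (Fgf14). Scn4b, also without thinning, was seen in 5 of 4945 SST cells, 10 of 1571 PVALB cells and 0 of 1351 NGFC, the last of which allows up to 0.222% of cells with a UMI.

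The comparison of regions in WT asks whether hippocampal and cortical interneurons of 1 class differ. Fgf13 in PVALB cells was the member with the largest difference. It stood at 141, 129.7 and 78.9 CPM in WT cortex and 528, 461 and 304 in WT hippocampus, and every hippocampal value was above every cortical one. Within replicates 1, 2 and 3 the log2 difference was 1.90, 1.82 and 1.93. By edgeR the log2 change, hippocampus minus cortex, was 1.90 ± 0.317 (SE; adjusted p = 0.0711), which did not pass the threshold. Deviations from the group mean correlated between regions by replicate number in each class. Replicate 1 of both regions has the earlier chemistry, so this does not show that animals were paired. In edgeR with the replicate as a block the change was 1.90 with an adjusted p of 0.00014 and was called. Without WT hippocampus replicate 2 it was 1.82 and not called (adjusted p over all alternatives 3.32e-06 to 0.532).

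Within the main PVALB cluster and within the Pthlh-led one, all hippocampal Fgf13 values given above were also higher than all cortical ones. The Pthlh-led cluster, which is high in Fgf13, made up 8.89% of PVALB cells in WT cortex and 35.7% in WT hippocampus. By library these shares were 10.9%, 13.4% and 4.89% in WT cortex and 28.85%, 46.0% and 15.3% in WT hippocampus. Replicate 2 held 81 of the 107 hippocampal cells of the cluster, and without it the hippocampal share was 21.0%. Oligodendrocyte markers in PVALB sums also moved with region. All 8 together reached 179.8, 1346 and 712 CPM in WT cortex and 1991, 3868 and 2844 in WT hippocampus. Of these, Enpp6 was at 0 in replicate 1 of both regions. The parts of the cluster shares and of these markers in the difference were not tested. In oligodendrocytes themselves Fgf13 was at 1.70 ± 1.035 CPM (SD, n = 6).

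Scn3a in PVALB cells stood at 12.05, 19.5 and 19.6 CPM in WT cortex and 52.5, 32.4 and 50.9 in WT hippocampus. The regions did not overlap, with all hippocampal values higher, at a log2 change of 1.35 ± 0.315 (SE; adjusted p = 0.280) and not called. With the replicate block the change was 1.33, again not called (adjusted p over all alternatives 0.0391 to 1). Fgf13 in NGFC ran the other way, at 1320, 895 and 929.7 CPM in WT cortex and 866, 576 and 861 in WT hippocampus. All hippocampal values were lower, but 1 NGFC cluster held 52.6% of WT hippocampal NGFC, most of them from replicate 2, without which the share was 7.28%, and the log2 change of -0.43 ± 0.304 (SE; adjusted p = 1) was not called. Whether region acts differently in PVALB cells and NGFC was not tested. Regions with so few libraries can also lie apart without a difference, and the share of all genes that do so is not given.

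By edgeR 0 of the 8 tested genes were called between regions in SST cells, against 0.0417% of 11979 genes, 0 in PVALB cells, against 0.0344% of 8719, and 0 in NGFC, against 0% of 7952. With backgrounds this low, a count of 0 says little about these genes. At an unadjusted p under 0.05 there were 0, 2 and 0 of them, among 890, 403 and 205 of all genes. DESeq2 called 138, 26 and 5 of all genes, Fgf13 in PVALB cells among them. Of all genes, 5 were called in SST cells and 3 in PVALB cells. Without WT hippocampus replicate 1 the count for SST cells was 2, and without any 1 WT cortex library or WT hippocampus replicate 3 it was 0. For PVALB cells it was 0 without any 1 of the 6 libraries. With the replicate block 2.66%, 0.493% and 0.113% of all genes were called, and of the members 0, 1 (Fgf13) and 0. The log2 changes of the 8 genes ran from -0.53 (Fgf14) to 0.45 (Scn1a), with SEs of 0.209 to 0.442 in SST cells, from -0.48 (Scn8a) to 1.90 (Fgf13), with SEs of 0.258 to 0.488 in PVALB cells, and from -0.43 (Fgf13) to 0.62 (Scn3b), with SEs of 0.304 to 0.562 in NGFC.

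Some other members differed in 1 direction in all 3 replicate pairs without being called. With so few pairs this can arise without a difference, and the share of all genes that do so is not given. Scn8a in PVALB cells was lower in hippocampus, by a log2 difference of -0.447, -0.469 and -0.5485 in replicates 1 to 3, with 199, 284 and 222 CPM in WT cortex and 146, 205 and 151 in WT hippocampus. The ranges overlapped, and with the replicate block the change was -0.49 (adjusted p = 0.286, over all alternatives 0.286 to 1). Scn1a in SST cells was higher in hippocampus, by 0.606, 0.596 and 0.296, with 146, 236 and 223 CPM in WT cortex and 223, 357 and 273.5 in WT hippocampus. With the block its change was 0.44 (adjusted p = 0.2275, over all alternatives 0.2275 to 1), and by edgeR it was 0.45, or 0.22 without WT hippocampus replicate 2. For the 2 clusters given next, the make-up of SST cells differed between regions mainly through WT hippocampus replicate 2. Its part in the Scn1a difference was not tested. The Myh8-marked cluster, lowest in Scn1a, held 21.2% of them in WT cortex and 8.20% in WT hippocampus (18.9% without replicate 2 and 4.93% without replicate 3). The low-depth cluster held 13.7% in WT cortex (8.42% without replicate 2) and 47.9% in WT hippocampus (9.84% without replicate 2). Without the 2 doubted clusters the change was 0.46. Fgf12 was lower in hippocampus in PVALB cells, by -0.300, -0.676 and -0.155, and in SST cells, by -0.176, -0.0203 and -0.0702. With the block these changes were -0.37 (adjusted p = 0.470, over all alternatives 0.470 to 1) and -0.14 (adjusted p = 0.788, over all alternatives 0.788 to 1).

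The comparison of genotypes asks whether loss of Grin1 in the lineage is followed by a change in these genes. No member was called in any class or region. In the tests within cortex 0 of 8 were called in SST cells (0% of 12856 genes), 0 in PVALB cells (0% of 9655) and 0 in NGFC (0% of 9950). Within hippocampus the counts were 0 in SST cells (0%), 0 in PVALB cells (0%) and 0 in NGFC (0%). Over the mean of both regions they were 0 in SST cells (0.00778%), 0 in PVALB cells (0.0104%) and 0 in NGFC (0%), and the only genes called were Grin1 in SST and in PVALB cells. For the interaction of genotype and region they were 0 in SST cells (0%), 0 in PVALB cells (0%) and 0 in NGFC (0%). A test that calls so few of all genes cannot show that the members are unchanged. By edgeR, 274, 483, 779 and 63 of all genes had an unadjusted p under 0.05 in SST cells (cortex, hippocampus, mean and interaction). In PVALB cells these were 363, 303, 708 and 113, and in NGFC 150, 317, 444 and 42. DESeq2 called 2, 2, 4 and 0 in SST cells, 15, 1, 4 and 0 in PVALB cells, and 0, 1, 1 and 0 in NGFC, none of them a member. Leaving out WT hippocampus replicate 2 raised the count over all genes in PVALB cells of the cortex to 10, no member among them, leaving out either Grin1-null hippocampus library raised it to 3, and leaving out WT cortex replicate 1, WT hippocampus replicate 1 or WT hippocampus replicate 3 raised it to 1. Grin1-null cortex NGFC came from 1 library, which was assumed to vary like the other groups.

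In PVALB cells the member with the lowest unadjusted p was Fgf12 in the cortex. It stood at 442, 484 and 557 CPM in WT cortex and 319.8 and 284 in Grin1-null cortex, both Grin1-null values lying below all WT ones. In the hippocampus it stood at 359, 302 and 500.3 and 352 and 353 CPM, which overlapped. The log2 change, Grin1-null minus WT, was -0.70 ± 0.283 (SE; adjusted p = 1) in cortex, with an unadjusted p of 0.0264, and -0.14 ± 0.278 (SE; adjusted p = 0.999) in hippocampus. Over the mean of both regions it was -0.42 ± 0.198 (SE; adjusted p = 0.688). The difference between regions was not called either, at an interaction of 0.56 ± 0.392 (SE; adjusted p = 1). The make-up of PVALB cells also differed, since the main cluster held 88.3% of them in WT cortex and 47.0% in Grin1-null cortex. By library it held 81.9%, 85.0% and 92.3% in WT cortex and 74.1% and 43.9% in Grin1-null cortex, where replicate 2 held 237 of the 264 PVALB cells, so without it the share was 74.1%. The Crabp1-led cluster, low in Fgf12, held 7.25%, 1.60% and 2.84% in WT cortex and 22.2% and 24.5% in Grin1-null cortex. Within the main cluster Fgf12 was 485, 533 and 586 CPM in WT cortex and 393 and 407.5 in Grin1-null cortex, again without overlap. In Grin1-null cortex replicate 1 this cluster held 20 cells. The part of the make-up in the change was not tested.

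Scn3b in SST cells stood at 68.8, 96.8 and 80.4 CPM in WT cortex and 49.99 and 59.7 in Grin1-null cortex, without overlap, and at 121, 74.6 and 95.9 in WT hippocampus and 61.7 and 78.2 in Grin1-null hippocampus, with overlap. Its log2 change over both regions was -0.50 ± 0.191 (SE; adjusted p = 0.796), with an unadjusted p of 0.0222. Against WT of the same replicate number Grin1-null was lower in 3 of the 4 pairs. The make-up of SST cells varied between libraries of the same group, and its part in the Scn3b change was not tested. In cortex the TH cluster, lowest in Scn3b, held 15.9%, 8.74% and 10.9% of them in WT and 8.18% and 23.6% in Grin1-null, and the Chodl-marked cluster 5.29%, 11.4% and 3.56% and 2.73% and 19.8%. In hippocampus the low-depth cluster, with the highest mean Scn3b (115 ± 61.4 CPM, within 1 SD of the next), held 47.9% in WT and 9.275% in Grin1-null, but 9.84% in WT without replicate 2. Without TH cells the log2 change was -0.43 in place of -0.56 in cortex and -0.44 over both regions, and without the 2 doubted clusters -0.54 and -0.53.

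Fgf14 in NGFC of the hippocampus stood at 23.5, 46.0 and 23.65 CPM in WT and 9.05 and 21.5 in Grin1-null, without overlap, at -0.91 ± 0.453 (SE; adjusted p = 0.961). The doubted neurogliaform cluster held 52.6% of these cells in WT (7.28% without replicate 2) and 4.16% in Grin1-null (0% without replicate 2). It held 99.4% of the NGFC of WT replicate 2, the library with the highest value. Without that library the change was -0.47, as it was without the 2 doubted clusters, and it was -0.58 without Grin1-null hippocampus replicate 1 and -1.70 without replicate 2. Scn3a in PVALB cells of the cortex was 25.15 and 22.4 CPM in Grin1-null against 12.05, 19.5 and 19.6 in WT, also without overlap, at 0.39 ± 0.399 (SE; adjusted p = 1). Fgf12 in SST cells of the cortex, at 260.5, 264 and 285 CPM in WT and 245.5 and 254 in Grin1-null, did not overlap either, at -0.10 ± 0.223 (SE; adjusted p = 1). None of the results of these paragraphs was called. When libraries are so few, the values of unchanged genes can also lie apart between genotypes. The share of all genes that do so is not given, so a lack of overlap is not read as a change.

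Apart from NGFC of the cortex, where Grin1-null has 1 library, the other members overlapped between genotypes. Scn1a in PVALB cells stood at 269, 452 and 482 CPM in WT cortex and 456 and 413 in Grin1-null cortex, and at 228, 549 and 346 in WT hippocampus and 362 and 457 in Grin1-null hippocampus. Scn8a in PVALB cells stood at 146, 205 and 151 CPM in WT hippocampus and 175 and 302 in Grin1-null hippocampus, overlapping, at 0.51 ± 0.301 (SE; adjusted p = 0.999). Fgf13 in PVALB cells was spread widely in Grin1-null cortex, at 53.9 and 231 CPM, and the 2 libraries lay on either side of WT cortex. The Pthlh-led cluster, high in Fgf13, held 1 of 27 PVALB cells (3.70%) in the first and 75 of 237 (31.65%) in the second, while within the main cluster Fgf13 was 62.4 and 77.05 CPM. The part of these shares in the spread was not tested. The log2 changes of the 8 genes over both regions ran from -0.50 (Scn3b) to 0.023 (Scn8a), with SEs of 0.157 to 0.320 in SST cells. They ran from -0.42 (Fgf12) to 0.30 (Scn8a), with SEs of 0.198 to 0.451 in PVALB cells, and from -0.43 (Scn3a) to 0.16 (Fgf12), with SEs of 0.2585 to 0.464 in NGFC. Of 24 member interactions 0 had an unadjusted p under 0.05. Some members differed in 1 direction in every pair with WT of the same replicate number, over both regions. Grin1-null was lower for Fgf12 in SST cells, Fgf14 in PVALB cells and Scn3a in NGFC, and higher for Fgf12 in NGFC. For Fgf14 in PVALB cells Grin1-null cortex replicate 1 had 0 UMIs, and NGFC of the cortex have 1 pair. None of these was called. With so few pairs a shared direction can arise without a change, and the share of all genes that have one is not given.

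**Figure D3:**
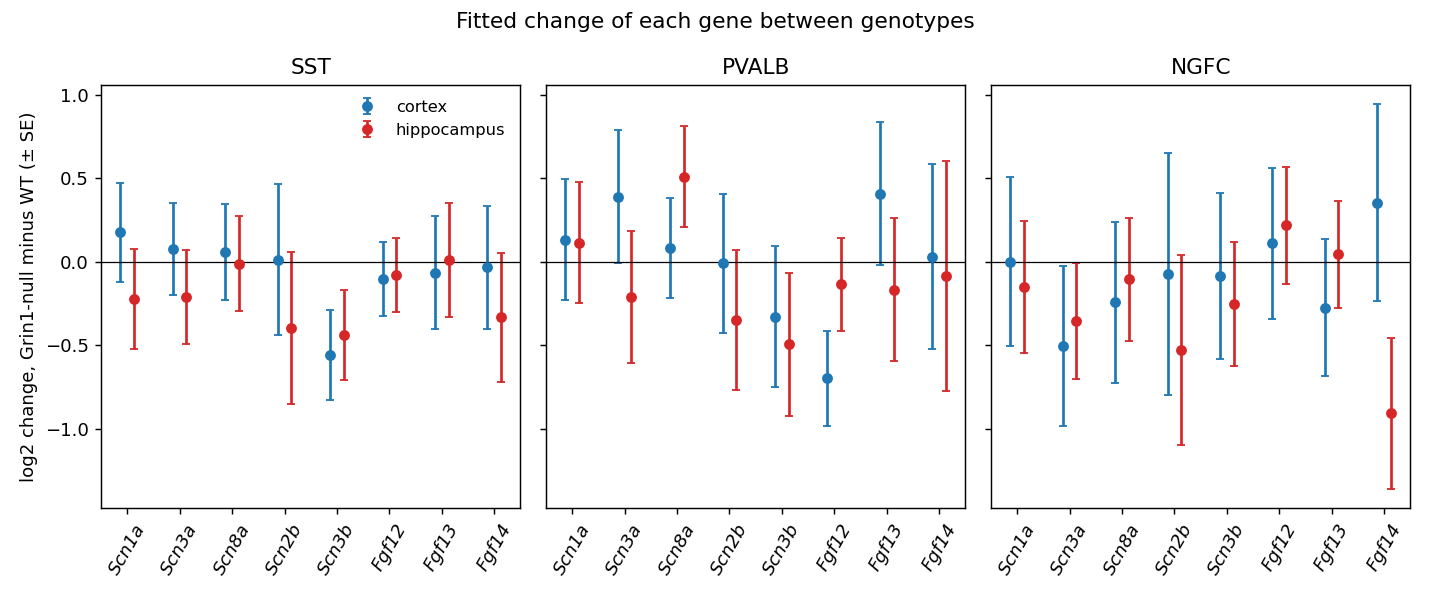
Log2 change, Grin1-null minus WT, of the 8 tested genes (horizontal axis) in SST, PVALB and NGFC (panels), for cortex and hippocampus, with bars of 1 SE derived from the edgeR test statistic. Values lie between -0.91 (Fgf14 in NGFC of the hippocampus) and 0.51 (Scn8a in PVALB cells of the hippocampus), and none was called.

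Genes of 3 lists around the channel were read in the same tests. Of all genes tested between classes, 11.5% were higher and 10.9% lower for PVALB minus SST (median log2 change -0.0043), 11.5% and 12.2% for NGFC minus SST (0.0071), and 12% and 11.3% for PVALB minus NGFC (-0.016), and nothing particular to a list follows from its counts. Of 10 other sodium channel genes, 5 passed the filter between classes. For PVALB minus SST 1 was higher and 2 lower (median log2 change 0.088), for NGFC minus SST 0 and 0 (0.072), and for PVALB minus NGFC 1 and 1 (-0.26). Of 10 axon initial segment genes, all tested between classes, 2 were higher and 2 lower for PVALB minus SST (-0.014), and 0 were called for NGFC minus SST (-0.11) and for PVALB minus NGFC (0.082). Of 10 genes of channel binding, turnover and the sodium pump, 1 was higher and 5 lower for PVALB minus SST (-0.34). For NGFC minus SST 0 were higher and 5 lower (-0.35), and for PVALB minus NGFC 2 and 2 (0.13). Between regions 0 of 69 tests of these genes were called by edgeR, where at most 0.0417% of all genes were, and 0 by DESeq2, with 2 at an unadjusted p under 0.05. Between genotypes, interactions included, it was 0 of 292 by edgeR, where at most 0.0104% of all genes were called, and 0 by DESeq2, with 14 at an unadjusted p under 0.05.

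Scn9a, an alpha subunit best known from sensory neurons, averaged 8.17 ± 3.72 CPM (SD, n = 6) in SST cells and 3.29 ± 3.79 in PVALB cells. The log2 ratio of these means, in which each library counts alike, is -1.31, while edgeR, fitted to the counts with the library as a term, gave -2.42 ± 0.506 (SE; adjusted p = 0.000868), so the size of this change is uncertain. Scn2a, another alpha subunit of the brain, which the files list as Scn2a1, averaged 187 ± 40.5 CPM in PVALB cells and 287 ± 54.15 in NGFC, at -0.66 ± 0.0855 (SE; adjusted p = 5.08e-06) for PVALB minus NGFC. Schip1, a partner of ankyrin G, was at -0.95 ± 0.230 (SE; adjusted p = 0.00314) for PVALB minus SST, a call lost with DESeq2. The adhesion protein gene Cntn1 was at -0.44 ± 0.0743 (SE; adjusted p = 7.91e-05) for NGFC minus SST. Atp1b1, a pump beta subunit, was low in NGFC, at -0.65 ± 0.0649 (SE; adjusted p = 1.11e-07) for NGFC minus SST and 0.83 ± 0.0653 (SE; adjusted p = 6.77e-09) for PVALB minus NGFC. Between PVALB cells and NGFC, the ubiquitin ligase gene Nedd4l was at -0.56 ± 0.130 (SE; adjusted p = 0.00219) and the pump beta subunit gene Atp1b2 at -0.63 ± 0.145 (SE; adjusted p = 0.00198). Both calls were lost without WT hippocampus replicate 3, and that of Nedd4l also without WT cortex replicate 3 (adjusted p over all alternatives 0.000587 to 0.334 for Nedd4l and 8.41e-06 to 0.0604 for Atp1b2). Without the library as a term the calls of this paragraph were lost except those of Atp1b1.

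Likeness of pattern was measured as Pearson r of log2(CPM + 1) over the 32 clusters with at least 50 WT cells, among 7245 genes, and these clusters include glia. The most alike genes, with 1 of the 2 given for Scn3b, were Cplx1 (r = 0.974) and Elavl2 (r = 0.972) for Scn1a, and C77370 (r = 0.924) and Gap43 (r = 0.9165) for Scn3a. For Scn8a they were Rnf157 (r = 0.922) and Lmtk3 (r = 0.912). For the beta subunits they were Rit2 (r = 0.958) and Cgref1 (r = 0.955) for Scn2b, and Slc17a7 (r = 0.8655) and Itpka (r = 0.817) for Scn4b, while Scn3b had Resp18 (r = 0.930). For the homologous factors they were Camk2n2 (r = 0.958) and Nap1l2 (r = 0.9565) for Fgf12, Vstm2a (r = 0.946) and Gabbr2 (r = 0.927) for Fgf13, and Chl1 (r = 0.954) and Erc2 (r = 0.951) for Fgf14. All 9 genes were lower in oligodendrocytes than in the interneuron class where each was highest.

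In the GENCODE vM21 annotation of mm10 the alpha subunit genes are Scn1a (ENSMUSG00000064329, chromosome 2 from 66270778 to 66440840, minus strand), Scn3a (ENSMUSG00000057182, chromosome 2 from 65457118 to 65567627, minus strand) and Scn8a (ENSMUSG00000023033, chromosome 15 from 100869858 to 101045938, plus strand). The beta subunit genes are Scn2b (ENSMUSG00000070304, chromosome 9 from 45117782 to 45130070, plus strand), Scn3b (ENSMUSG00000049281, chromosome 9 from 40269217 to 40291618, plus strand) and Scn4b (ENSMUSG00000046480, chromosome 9 from 45138395 to 45154152, plus strand), so all 3 lie on chromosome 9. The homologous factor genes are Fgf12 (ENSMUSG00000022523, chromosome 16 from 28160098 to 28753068, minus strand), Fgf13 (ENSMUSG00000031137, chromosome X from 59062145 to 59568071, minus strand) and Fgf14 (ENSMUSG00000025551, chromosome 14 from 123977907 to 124677127, minus strand). The deposited counts used gene ends extended downstream, so a UMI may lie beyond these ends.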

How the data were processed

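Raw UMI counts, deposited as counts per gene and cell, were read from 4 matrices. The authors made them with Cell Ranger (2.1.1 in the notes, 3.0.2 in the matrix headers) on mm10 with extended gene ends. Barcode suffixes gave 10 libraries, matched to replicates by their cell numbers. Cells with 200 to 6000 genes and under 30% mitochondrial counts were kept. Seurat 5.3.0 integrated the 4 matrices, with the libraries of a matrix pooled and not integrated with each other. It gave 33 clusters, named from listed markers. For this, 15 listed genes were removed from the 2000 features ranked, leaving 1985. UMIs of a class were added up in each library, leaving out sums of under 10 cells. Tests used edgeR 4.0.16 (quasi-likelihood, TMM, low-count filter, Benjamini-Hochberg over all genes tested), with library as a term between classes. The SE of an edgeR change was derived as its size over the square root of the F statistic of its test. The method was also tested on simulated data. Other tools were R 4.3.3 with DESeq2 1.42.0 and limma 3.58.1, and Python 3.11.15 with scanpy 1.11.5, pandas 2.3.3, scipy 1.17.1 and numpy 2.4.6. Replicate numbers were checked for pairing by correlating deviations from group means, and r between WT regions was 0.787, 0.719 and 0.435 in SST cells, 0.640, 0.639 and 0.408 in PVALB cells and 0.642, 0.575 and 0.282 in NGFC. Replicate numbers share the version of the chemistry between regions, so these r do not show pairing of animals. Genotypes have 2 pairs a region. The genes named are the 9 members, Grin1, the 3 lists of 10 genes (at most 4 called genes of largest change a comparison) and the 2 most alike genes of each member, not all of which are printed. Members and lists were chosen with earlier results of these data known. Intervals (95% Wilson for shares, exact Poisson for CPM) and the limits for counts of 0 (3 counts) cover counting error only. The alternatives tried were DESeq2, library-size scaling, no filter on low counts, a looser threshold, stricter cells, larger sums, other clusterings, doublets, TH cells or doubted clusters left out, model terms, and each library left out. Leaving out the doubted clusters was chosen after seeing the data.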

Additional observations from a re-analysis of the deposited data

How the results depend on the processing

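For the 8 genes tested, 429 of 456 values under the alternatives kept their direction and their side of the threshold between classes, 428 of 456 between regions and 1560 of 1687 between genotypes. No called member changed sign. Of 17 class calls 12 were lost without a library term, and 3 of these 17 were also lost under other alternatives, 12 values in all. Gains were 3 values of 1 class result (Fgf13, PVALB minus SST) and 3 of 1 region result (Fgf13 in PVALB cells), and 0 between genotypes. Signs changed among uncalled results only, in 11 of 24 region and 42 of 72 genotype results. Library-size scaling moved no median of all genes by more than 0.1, and scaling changed no member's call.

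Counts over all genes moved more, and the cause was not tested. Without a library term they were 502 (PVALB minus SST), 889 (NGFC minus SST) and 714 (PVALB minus NGFC). Leaving out 1 library gave 1438 to 2521 for PVALB minus SST. Between regions, in SST, PVALB and NGFC in turn, DESeq2 called 138, 26 and 5, no filter on low counts 149, 90 and 30, and the replicate block 319, 43 and 9. A threshold of 0.05 called 36 in SST and 11 in PVALB cells, and removing doublets, or leaving out the doubted clusters, 3 in SST cells. Leaving out 1 library gave 0 to 4 in SST and 0 to 0 in PVALB cells. Between genotypes DESeq2 called 2 (SST cortex), 2 (SST hippocampus), 4 (SST mean), 15 (PVALB cortex), 1 (PVALB hippocampus), 4 (PVALB mean), 1 (NGFC hippocampus) and 1 (NGFC mean). No filter on low counts called 26, 22, 56 and, for the interaction, 2 in SST cells, 57, 14, 56 and 2 in PVALB cells, and 5, 23 and 26 in NGFC (cortex, hippocampus, mean). A threshold of 0.05 called 1 in SST cortex, 1 in SST hippocampus and 12 in PVALB cortex. In PVALB cortex the block called 4, listed genes among the clustering features 1 and only the 2 groups compared 12, and in the PVALB mean the block called 2. Leaving out 1 library gave 0 to 1 in the SST mean, 0 to 10 in PVALB cortex and 0 to 2 in the PVALB mean. Without Grin1-null cortex replicate 2 there is no NGFC value for cortex or for the mean.

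Each Grin1-null group has 2 libraries, and Grin1-null cortex replicate 1 kept 177 cells, so the SEs given with the genotype results limit what was detectable. Thinning to 1000 UMIs lowered each share of WT cells with a UMI that was above 0 in SST cells, PVALB cells, NGFC and oligodendrocytes, counted over all WT libraries. Counts are 3′ tags and do not tell splice forms apart.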
